A study of Rattus norvegicus with 6 samples.

Results

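The circRNAs described here are those that the deposited table of back-splice junctions placed in no gene. They comprise 646 of the 11061 circRNAs in the table (5.84%), chosen by class: every circRNA catalogued as intergenic apart from 1, the most-read circRNA of that class, at chrX:144352333-144354594 on the plus strand. Together the 646 held 3892 of 95863 back-splice reads (4.06%), while the excluded X-linked circRNA alone held 3118. The exclusion is by junction and not by position: 11 of the 646 lay over the excluded circRNA, 9 on its strand and 2 on the other.

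All libraries were made from spinal cord of Wistar rats at 8 weeks of age. The SCI group (3 libraries) had the cord cut across in surgery, and the sham group (3 libraries) had the bone over the cord removed with no cut. The design text speaks of a complete cut and the title can be read as an incomplete one, and neither the interval after surgery nor the number of rats per library is stated. The p-values therefore measure only how these libraries differ, which may be partly technical.

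A circRNA is a closed loop made when the spliceosome joins a downstream 5′ splice site to an upstream 3′ splice site. In the counts used here, reads across that junction are the only evidence for the loop. Most known circRNAs are built from exons of protein-coding genes, and they are abundant in neural tissue because loops resist exonucleases and persist in cells that do not divide. A junction called outside annotated genes can mark an exon or transcript that the annotation lacks, such as an unannotated long noncoding RNA, and it can also arise when a read is placed wrongly among repeated or near-identical sequences.

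Depth was 21255, 20847 and 19603 back-splice reads in SCI, against 11631, 9805 and 12722 in sham. The table lists no circRNA that failed to reach 2 reads in some library. One with 2 reads in all is therefore seen in a single library. Host genes of circRNAs included 8 of 8 neuronal (615 reads) and 7 of 8 oligodendrocyte genes checked (476 reads). They also included 4 of 5 astrocyte (48 reads) and 1 of 4 skeletal muscle genes (7 reads). Of 3 liver genes only Serpinc1 hosted any. It held 310 reads and 0.192 to 0.291% of the reads in SCI libraries, against 0.377 to 0.592% in sham libraries. Its part in the results below was not tested.

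Most of the intergenic circRNAs rested on very few reads. Their median was 3 reads summed over the 6 libraries, 295 had 2 reads, 139 had 3 and 63 had 4. Only 50 reached 10 reads, yet these 50 held 51.8% of the reads of the whole class, and the 10 most read held 31.3%. The reads were therefore concentrated in a small set, with a long tail of junctions seen 2 to 4 times.

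The tail was seldom seen in more than 1 library. Of the 646, 507 (78.5%) had reads in a single library, against 56.9% of the 10414 gene-assigned circRNAs and 51.9% of the exonic ones. Another 68 were seen in 2 libraries, 20 in 3, 24 in 4, 11 in 5 and 16 in all 6. These 16 held 34.9% of the intergenic reads, and 12 of them carried an identifier in the table's circBase column, circBase being a public catalogue of circRNAs. The difference from gene-assigned circRNAs was there at equal read totals. Among circRNAs with 3 reads, 84.2% of intergenic and 70.4% of gene-assigned ones were seen in 1 library; with 4 reads the shares were 66.7% and 47.8%, and with 5 to 9 reads 52.5% and 23.7%. From 10 reads upward nearly all were seen again, and 3.85% of intergenic and 1.87% of gene-assigned circRNAs with 10 to 19 reads were seen in 1 library.

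**Figure D1:**
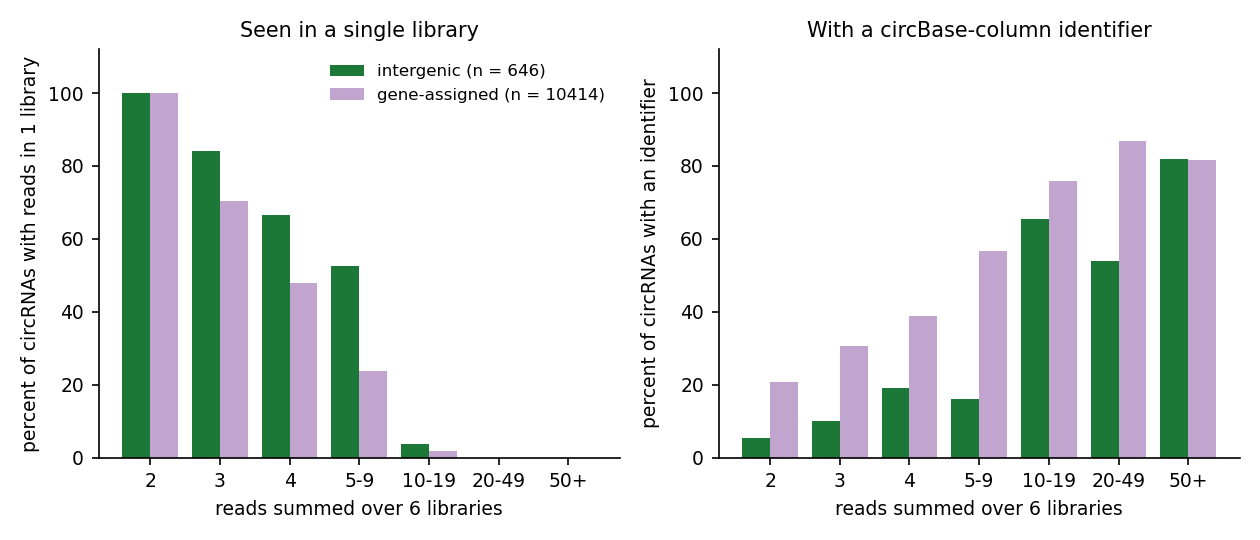
Percent of circRNAs with reads in a single library (left) and percent with a circBase-column identifier (right), by reads summed over 6 libraries, for 646 intergenic and 10414 gene-assigned circRNAs. At 5 to 9 reads, 52.5% of intergenic circRNAs were seen in 1 library against 23.7% of gene-assigned ones, and 16.2% had an identifier against 56.8%; at 50 or more reads the identifier shares were 81.8% and 81.7%.

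Counted as reads within each library, 29.5, 32.0 and 37.2% of intergenic reads in SCI, against 45.6, 32.1 and 46.4% in sham, lay on circRNAs seen nowhere else. For gene-assigned circRNAs this was 16.1, 16.4 and 17.6% in SCI and 22.1, 18.7 and 25.4% in sham libraries. Every library therefore gave the higher value for intergenic circRNAs. The mean was 37.1 ± 7.31% against 19.4 ± 3.65% (SD, n = 6 libraries), a difference of 17.8 percentage points, higher in 6 of 6 libraries (two-sided exact sign-flip permutation test, p = 0.03125, the smallest that 6 libraries can give, and 0.03125 after adjustment over 3 measures). Single-library junctions with many reads came mainly from sham replicate 3, which held 12 intergenic circRNAs with 7 or more reads that no other library had. The other libraries held 0, 0 and 1 such circRNAs in SCI, and 3 and 1 in sham replicates 1 and 2.

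An identifier split the class into differing sets. The 91 circRNAs with an identifier (14.1%) held 1837 reads, 47.2% of the intergenic total, and the 555 without one held 2055. All 91 identifiers spelled out the junction's own coordinates, and whether each matches an entry in circBase was not checked. Identifiers were carried by 41.5% of gene-assigned, 51.4% of exonic, 24.5% of sense-overlapping, 10.7% of antisense and 5.71% of intronic circRNAs. The intergenic class thus lay between the antisense and the sense-overlapping ones. Intergenic circRNAs with an identifier had a median of 6 reads against 2 for those without, spanned a median of 14678 bases against 1781, and were seen in a single library in 37.4% of cases against 85.2%. They also used a junction end that some other circRNA in the table used in 62.6% of cases against 15.1%. Over the whole class that last share was 21.8%, against 48.8% of gene-assigned circRNAs. The median reads of both intergenic sets differ, and how far read number accounts for the other contrasts was not tested.

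Within libraries, the share of reads on circRNAs with an identifier was 54.0, 52.3 and 50.9% for intergenic circRNAs in SCI and 34.1, 44.6 and 39.9% in sham, against 66.8, 66.7 and 65.8% in SCI and 61.0, 62.0 and 59.7% in sham for gene-assigned ones. The intergenic mean of 46.0 ± 7.84% was 17.7 points below the gene-assigned mean of 63.7 ± 3.13% (SD, n = 6) and lower in 6 of 6 libraries (exact sign-flip permutation p = 0.03125, adjusted 0.03125). An identifier belongs to the circRNA, so libraries that share a circRNA share its identifier.

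The distance between junction ends was shorter than for gene-assigned circRNAs. Intergenic spans ran from 150 to 98839 bases with a median of 2395.5 (quartiles 577.75 and 14664), against a gene-assigned median of 10899. Under 500 bases lay 149 intergenic circRNAs (23.1%), against 637 gene-assigned ones (6.12%), and intronic circRNAs were the only class with a larger share, at 29.2%. At the long end, 45 intergenic circRNAs (6.97%) and 9.62% of gene-assigned ones spanned 50 kb or more. Of the 149 short intergenic circRNAs 4 had an identifier and 89.9% were seen in 1 library, while 17 of the 45 longest had one. The predicted RNA length equalled the genomic span in all 646, so no internal splicing was modelled for them and their true lengths are unknown here.

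**Figure D2:**
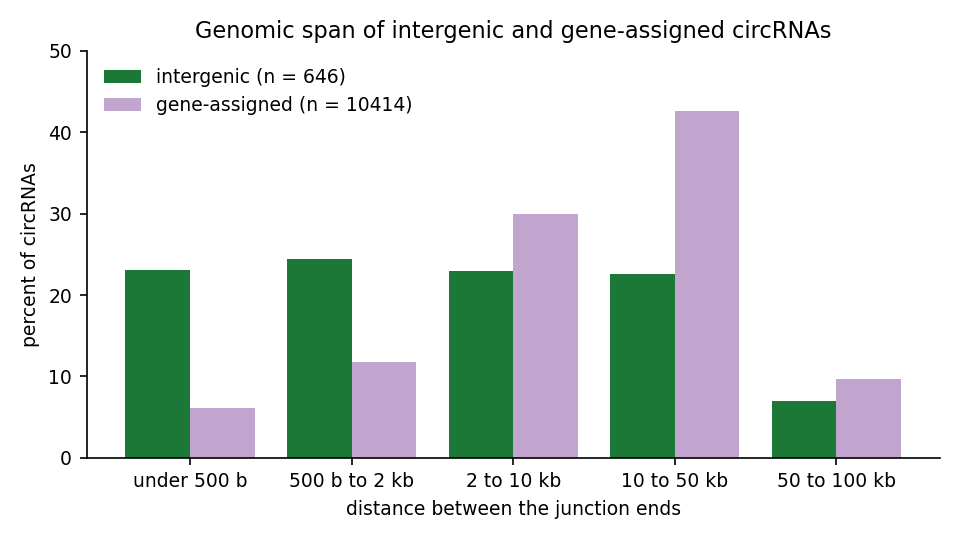
Percent of 646 intergenic and 10414 gene-assigned circRNAs in 5 classes of distance between the junction ends (bases or kb on the horizontal axis). Intergenic circRNAs were spread almost evenly over the first 4 classes, with 23.1% under 500 bases against 6.12% of gene-assigned ones, which peaked at 42.5% between 10 and 50 kb.

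The median span weighted by reads was 11047, 5497 and 7804 bases for intergenic circRNAs in SCI and 3902, 4554 and 4410 in sham libraries. Gene-assigned circRNAs gave 11133, 11891 and 10730 bases in SCI and 10595, 10036 and 9259 in sham. The intergenic value was lower in 6 of 6 libraries, with a mean difference of -4405 bases (exact sign-flip permutation p = 0.03125, adjusted 0.03125), with a difference of -86 bases in SCI replicate 1. A span belongs to the circRNA too, so libraries that share a circRNA share its span. Without the 3 largest overlap groups described further on, a choice made after seeing the data, the mean difference was -3071 bases and no longer passed the threshold (exact sign-flip permutation p = 0.0938). The longest circRNA of the class, chr8:77590373-77689211 on the minus strand at 98839 bases, rested on 2 reads in SCI replicate 1. The shortest, chrX:27987487-27987636 on the plus strand at 150 bases, rested on 2 reads in sham replicate 2.

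Position was uneven. Chromosome 1 carried 98 intergenic circRNAs, 15.2% of the class against 10.3% of gene-assigned circRNAs, many of them in 2 overlap groups 26.1 kb apart. Without these 2 groups 71 were left, or 6.64 per 100 gene-assigned circRNAs, against 6.20 over all chromosomes. With them it held 9.16 per 100, close to chromosome 11 with 9.18 and chromosome 16 with 8.51. Chromosome X held 13.1 per 100, or 8.85 without the 11 over the excluded circRNA. Chromosome 7 held only 31 intergenic circRNAs but 17.6% of intergenic reads, against 4.51% of gene-assigned reads. Strands were even, with 314 on the plus strand (48.6%).

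The word intergenic did not always mean far from a gene's own circRNAs. Against circRNAs assigned to a gene in sense, leaving out antisense ones, 65 (10.1%) overlapped one on the same strand, and these held 29.2% of the intergenic reads. In 44 (6.81%, 950 reads) at least 1 junction end was exactly that of such a sense circRNA, and in 5 both ends were. A further count, overlap with an antisense circRNA on the same strand, came to 27 of the 646. Sharing an end was found in 28.6% of intergenic circRNAs with an identifier, against 3.24% of those without. The 579 that overlapped no sense circRNA of a gene on either strand lay a median of 162 kb from the nearest (quartiles 51.4 and 430 kb), 37 of them within 10 kb and 49 beyond 1 Mb.

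After injury the class as a whole did not separate from sham. Its share of all back-splice reads was 3.46, 4.01 and 4.06% in SCI, against 4.28, 3.84 and 5.12% in sham. The 95% Wilson interval, which covers counting error only, ran from 3.22 to 3.71% in SCI replicate 1 and from 4.75 to 5.51% in sham replicate 3. The groups overlapped. SCI averaged 3.84 ± 0.333% and sham 4.41 ± 0.646% (SD, 3 libraries a group), a difference of -0.573 points (two-sided exact permutation p = 0.3, adjusted 0.3 over 4 measures; 3 against 3 cannot go below 0.1). In tissue RNA such as this, fewer cells of a type and less RNA per cell cannot be told apart.

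**Figure D3:**
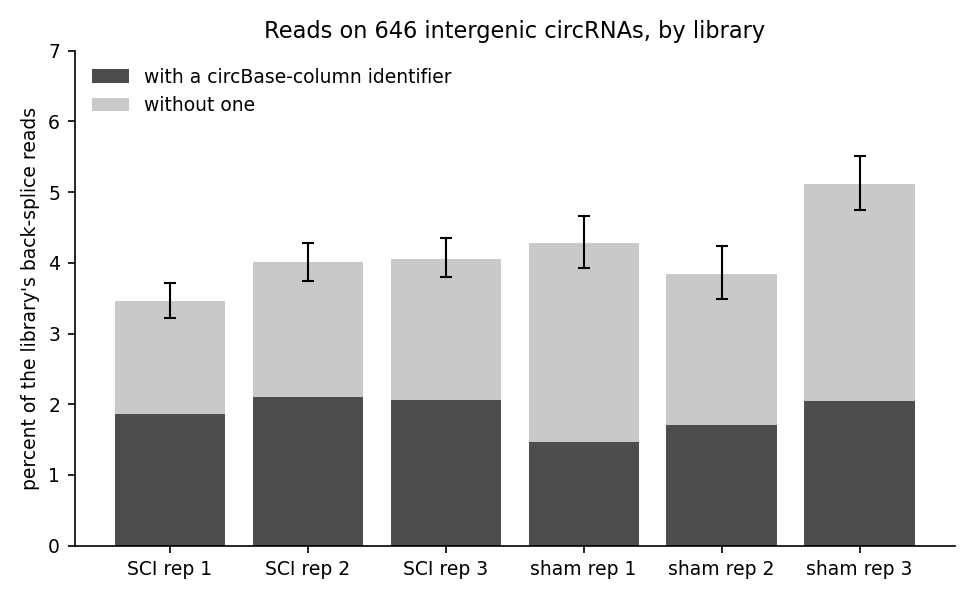
Percent of each library's back-splice reads on the 646 intergenic circRNAs, split by whether the circRNA has a circBase-column identifier, with 95% Wilson intervals of the total (counting error only). The SCI totals of 3.46 to 4.06% overlap the sham totals of 3.84 to 5.12%, and the part without an identifier is 1.59 to 1.99% in SCI against 2.13 to 3.07% in sham.

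The make-up of those reads differed without overlap, and the reads of gene-assigned circRNAs differed the same way. Library depth also differed between the groups without overlap, and the part of depth in these contrasts was not tested. Identifier shares of gene-assigned reads, 65.8 to 66.8% in SCI and 59.7 to 62.0% in sham, did not overlap, nor did their median spans of 10730 to 11891 bases in SCI and 9259 to 10595 in sham. The share of intergenic reads on circRNAs with an identifier averaged 52.4 ± 1.57% in SCI and 39.5 ± 5.22% in sham, a difference of 12.9 points (exact permutation p = 0.1, the smallest this design allows, adjusted 0.133). Counting each detected circRNA once, however, gave 26.1% in SCI and 26.2% in sham. Intergenic circRNAs without an identifier took 1.83 ± 0.213% of library reads in SCI and 2.68 ± 0.487% in sham (p = 0.1, exact permutation), and those with one 2.01 ± 0.124% and 1.74 ± 0.292% (p = 0.2). Those under 500 bases took 0.575 ± 0.156% in SCI and 0.985 ± 0.0228% in sham, and the median span of a read was 8116 ± 2788 bases in SCI against 4289 ± 343 in sham (p = 0.1, exact permutation, adjusted 0.133). With 3 libraries a group, exact permutation cannot go below p = 0.1, so no such test could pass 0.05. The shares of library reads by identifier were not adjusted, and the share under 500 bases was not tested. Among gene-assigned classes, intronic circRNAs also took a smaller mean share in SCI, 2.10 ± 0.172% against 3.16 ± 0.500% in sham. So did sense-overlapping ones (27.1 ± 0.838% against 28.5 ± 0.0547%) and antisense ones (0.470 ± 0.0756% against 0.594 ± 0.221%). Only exonic circRNAs took a larger mean share in SCI, 63.1 ± 1.05% against 60.3 ± 0.741%.

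The number of intergenic circRNAs seen could not be compared free of depth. The 3 SCI libraries contained 188, 209 and 202 and the sham libraries 127, 113 and 111. Thinned to the 9805 reads of the smallest library, the expected numbers were 142, 158 and 161 in SCI against 124, 113 and 109 in sham, with means of 154 ± 10.4 and 115 ± 8.03 (exact permutation p = 0.1, adjusted 0.133). Because the table keeps only junctions with 2 or more reads in some library, thinning leaves 1-read junctions in the deeper SCI libraries that the shallower sham libraries could not enter into the table. With 2 or more reads required after thinning the direction was the opposite, with means of 74.4 in SCI and 98.1 in sham (exact permutation p = 0.1), so neither direction is given as a result. Intergenic circRNAs made up 4.37 ± 0.292% of all circRNAs detected in SCI and 4.75 ± 0.599% of those in sham (exact permutation p = 0.4).

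Single circRNAs were tested in 1 fit of the 484 circRNAs, of any class, that passed the filter on low counts. Of these, edgeR's quasi-likelihood test called 0 higher (0.0%) and 1 lower (0.207%) in SCI at adjusted p under 0.05, and 30 (6.2%) had an unadjusted p under 0.05. The filter passed 16 of the 646 intergenic circRNAs, 13 with an identifier, which held 38.0% of the intergenic reads. None of the 16 was called by edgeR, and none of the intergenic circRNAs that entered each of 13 alternatives was, DESeq2 and limma-voom among them (10 entered at a minimum count of 10). In the main test 1 had an unadjusted p under 0.05. Their log2 fold changes were positive in 7 and negative in 9, with a median of -0.20, against 0.09 over all 484. No intergenic circRNA had every SCI library above every sham library in CPM, against 9.71% of all tested. In 1 every SCI library lay below, against 5.17%. CPM here are reads scaled to a common TMM-adjusted total of each library's reads on the 484 tested circRNAs alone. They are therefore not shares of all back-splice reads: SCI replicate 1 had 10228 reads on tested circRNAs, out of 21255. The standard errors of these 16 fold changes lay between 0.28 and 0.91.

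**Figure D4:**
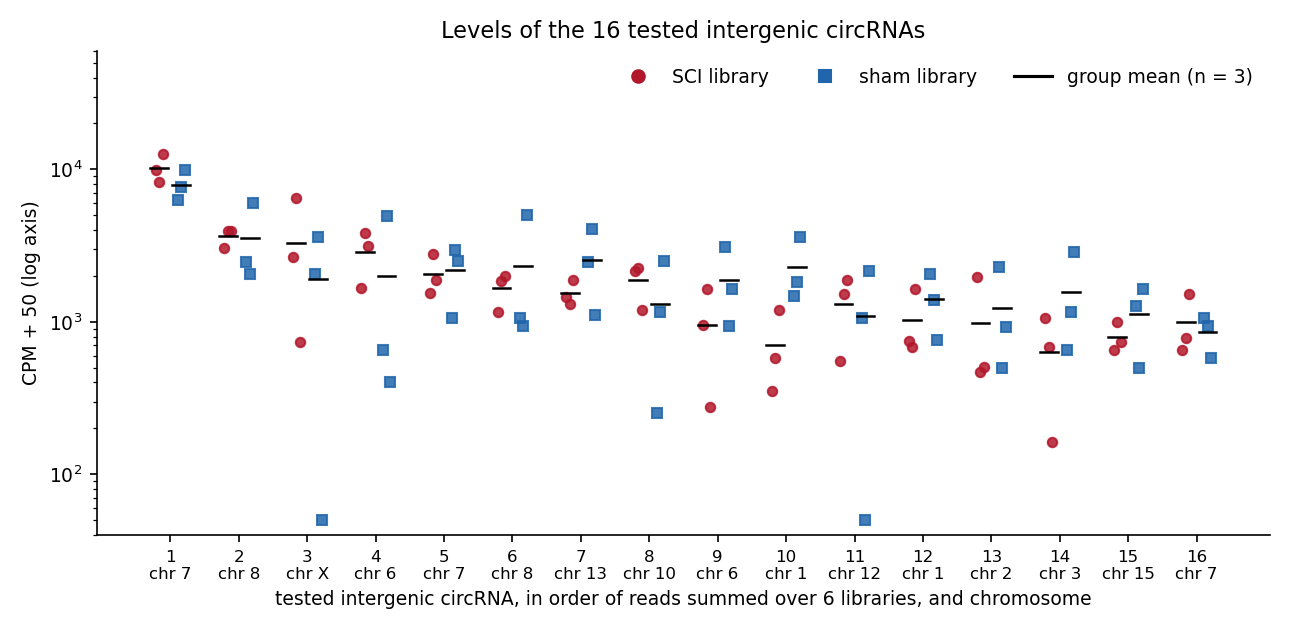
CPM plus 50 on a log axis in the 3 SCI and 3 sham libraries for the 16 tested intergenic circRNAs, in order of total reads, with group means as bars. Points of both groups overlap in 15 of the 16; the exception is circRNA 10, on chromosome 1, with all 3 SCI libraries below all 3 sham libraries.

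The most-read intergenic circRNA, chr7:33001650-33062342 on the minus strand (60693 bases, with an identifier), had 98, 78 and 111 reads in SCI libraries, against 31, 34 and 56 in sham libraries. That amounted to 10231 ± 2225 CPM in SCI and 7904 ± 1823 CPM in sham (SD, n = 3), which gave a log2 fold change of 0.37 with SE 0.28 (edgeR's quasi-likelihood test, adjusted p = 0.944). The groups overlapped. It led a nested family: 5 intergenic circRNAs ended at base 33062342 and held 565 reads, 14.5% of the class, with 130, 117 and 137 in SCI and 37, 52 and 92 in sham. The next most read of these, chr7:33029298-33062342, had 15, 26 and 16 reads in SCI against 5, 13 and 14 in sham. Both share their ends with circRNAs that the table assigned to LOC102548260, which RefSeq lists as a long noncoding RNA in rat assembly GRCr8. The 3 sense circRNAs assigned to that gene summed to 9 reads in SCI and 0 in sham, against the 565 of the intergenic ones.

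Chromosome 8 supplied the next. The circRNA chr8:23554099-23605060 (plus strand, 50962 bases, with an identifier) had 30, 37 and 34 reads in SCI, against 12, 9 and 34 in sham libraries, with a log2 fold change of 0.03 (SE 0.45) that was below 0 under 4 other settings of the test and without sham replicate 1 or 2. It lay between circRNAs of the neuronal RNA-binding protein gene Elavl3, 451 kb away, and of Bbs9, 208 kb away. The longer chr8:44166336-44218345 (plus strand, 52010 bases) had 11, 17 and 17 reads in SCI, against 5, 4 and 28 in sham. Its start was also that of a circRNA assigned to Mirlet7a-2, a let-7 microRNA gene, which had 2 reads. In both, sham replicate 3 stood above the other sham libraries, and without that library the log2 fold changes were 0.82 and 0.87, against 0.03 and -0.53 with it.

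In the other well-read circRNAs the groups overlapped as well. The 156-base chrX:119294537-119294692 (plus strand, with an identifier) had 26, 61 and 6 reads in SCI, against 10, 16 and 0 in sham, with a log2 fold change of 0.84 (SE 0.84) that was -0.09 without SCI replicate 2. chr6:142953262-142957815 (plus strand, with an identifier) had 16, 36 and 27 reads in SCI, against 3, 22 and 2 in sham, with a log2 fold change of 0.57 (SE 0.73). On its strand it overlapped 8 circRNAs assigned to a gene in sense. The nearest circRNAs of a named gene that did not overlap it, 9.74 kb and 7.73 kb away, were assigned to LOC102557203. For chr10:107473082-107477852 (minus strand) the counts were 21, 21 and 10 in SCI and 1, 5 and 14 in sham, and for chr6:40362042-40365307 (minus strand) 9, 15 and 2 in SCI and 15, 4 and 9 in sham. The end of this chromosome 6 circRNA was that of a circRNA of the long noncoding gene LOC103692581. Most read among those without an identifier was chr13:37592255-37607510 (minus strand), 45.6 kb from circRNAs of the cadherin gene Cdh19, with 14, 12 and 16 reads in SCI, against 12, 18 and 6 in sham. Its log2 fold change was -0.72 (SE 0.59). None of these was past the threshold in edgeR's quasi-likelihood test (adjusted p between 0.944 and 0.971).

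Outside the 10 most read, 2 tested circRNAs were taken by rank of p in their direction, though neither was near the threshold. chr3:111720071-111721770 (plus strand, 1700 bases, no identifier) had 10, 6 and 1 reads in SCI, against 3, 5 and 16 in sham, with a log2 fold change of -1.35 (SE 0.88, unadjusted p = 0.146 in edgeR's quasi-likelihood test). chr7:52746914-52747321 (minus strand, 408 bases, with an identifier) had 6, 7 and 13 reads in SCI, against 5, 4 and 3 in sham, with a log2 fold change of 0.21 (SE 0.83, unadjusted p = 0.799 in edgeR's quasi-likelihood test). Its start was shared with a circRNA assigned to LOC103692850. In both circRNAs the groups overlapped. The other 4 tested circRNAs had 38 to 52 reads each and overlapping groups too.

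The circRNA whose SCI libraries all lay below sham in CPM, chr1:228090789-228090947 (minus strand, 159 bases, no identifier), had 3, 5 and 10 reads in SCI, against 7, 8 and 20 in sham libraries. Its level was 655 ± 433 CPM in SCI and 2241 ± 1128 CPM in sham (SD, n = 3), giving a log2 fold change of -1.77 with SE 0.73 (edgeR's quasi-likelihood test, unadjusted p = 0.027, adjusted p = 0.727). It was the most-read of 22 intergenic circRNAs that overlap in a chain on the minus strand over 4948 bases, chr1:228086059-228091006, the largest of 527 such groups. The other 21 had 11, 8 and 7 reads in SCI, against 13, 6 and 26 in sham; 20 of them were seen in a single library, and none of the 22 reused a junction end. As a group they accounted for 0.0716 ± 0.0132% of the SCI reads and 0.225 ± 0.119% of the sham reads (exact permutation p = 0.1), a ratio of summed reads of 0.304 (exact 95% interval 0.206 to 0.445, counting error only). The share was 0.0659, 0.0624 and 0.0867% in the SCI libraries, against 0.172, 0.143 and 0.362% in sham, without overlap and with sham replicate 3 highest. The nearest circRNAs assigned to a named gene in sense were those of Map3k11, 94.4 kb to the left, and of the presynaptic adhesion gene Nrxn2, 726 kb to the right. On the same strand the group overlapped 5 circRNAs that the table called antisense to LOC102547101.

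A group of 5 on the same strand 26.1 kb further on, chr1:228117140-228120444, was chosen after its values were seen. It had 2, 4 and 1 reads in SCI, against 11, 8 and 7 in sham, a share of 0.0112 ± 0.00722% in SCI and 0.0771 ± 0.0202% in sham (exact permutation p = 0.1) and a ratio of 0.149 (0.0546 to 0.353), or 0.0965 without SCI replicate 2. These 2 were the groups below sham without overlap among the 54 groups with 2 or more members (3.7%), and 5 groups lay above (9.26%). Among all 484 tested circRNAs, taken singly and in CPM, 5.17% lay below and 9.71% above, so neither count of groups stood out. Without both chromosome 1 groups the class made up 3.76 ± 0.326% of the SCI reads and 4.11 ± 0.546% of the sham reads (exact permutation p = 0.4).

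The 5 groups above sham were likewise named after their values were seen, and all rested on few reads. The 4 circRNAs at chr3:87824652-87862231 (plus strand) had 9, 12 and 14 reads in SCI, against 0, 2 and 2 in sham, a ratio of 4.84 (1.73 to 18.8), or 3.19 without sham replicate 1. Of their 39 reads, 30 lay on chr3:87830790-87862231, described further on. The other 4 groups had no sham read. At chrX:114516579-114592252 (plus strand) 3 circRNAs had 4, 8 and 1 reads in SCI, and at chr6:154351495-154388001 (plus strand) 3 had 5, 2 and 4. At chr16:2366451-2424116 (plus strand) 3 circRNAs had 3, 2 and 3 reads in SCI, and at chr17:29062231-29135570 (minus strand) 2 had 7, 1 and 5.

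**Figure D5:**
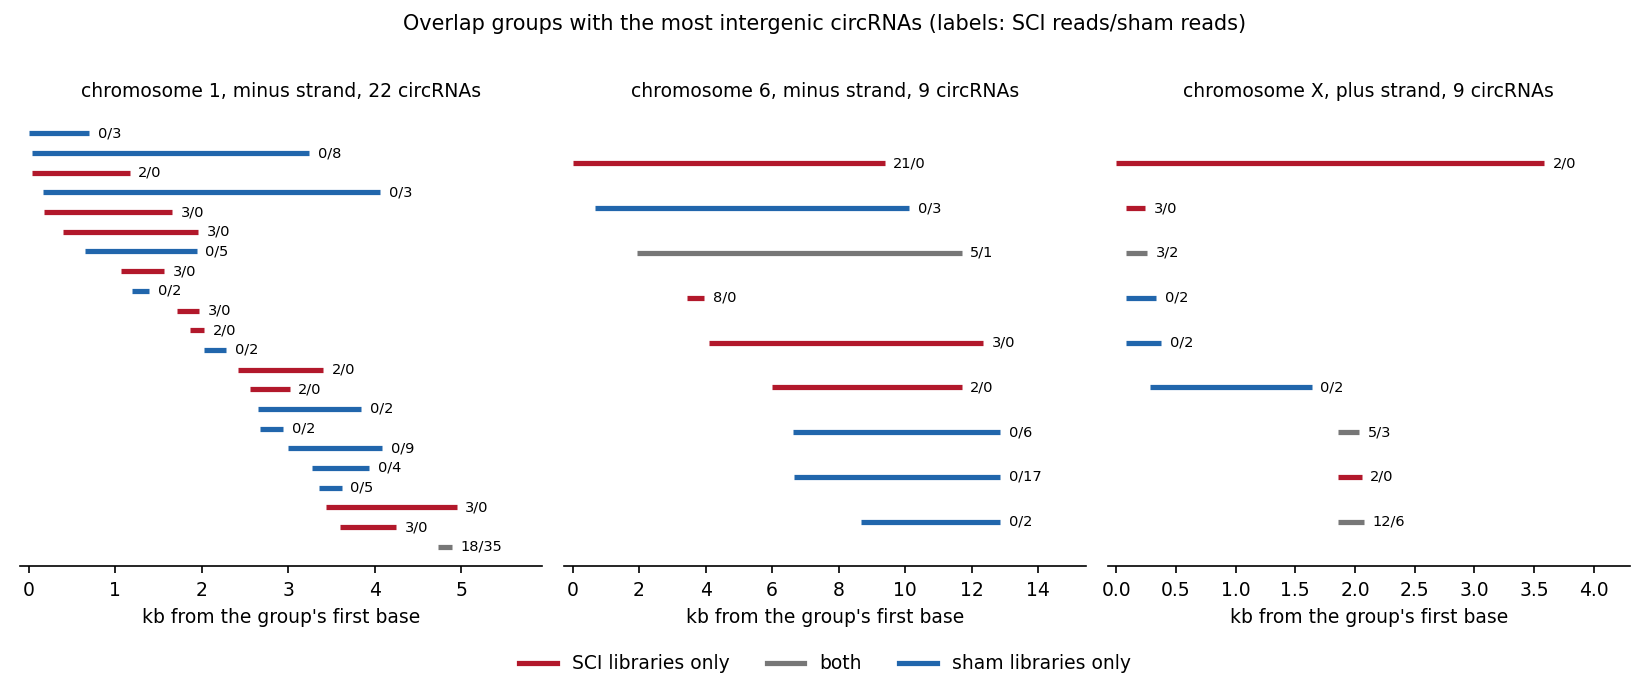
The 3 overlap groups with the most intergenic circRNAs, each circRNA drawn as a line from its first to its last base in kb from the group's first base, with its summed SCI reads before and sham reads after the slash. On chromosome 1 the ends differ from circRNA to circRNA, on chromosome 6 a near-identical pair has 0 SCI and 23 sham reads, and on chromosome X 7 of the 9 use 1 of 2 start points.

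The 9 overlapping circRNAs at chr6:146346328-146359197 on the minus strand, none with an identifier, were read in opposite ways. As a group they had 13, 19 and 7 reads in SCI, against 17, 4 and 8 in sham (exact permutation p = 0.6 on their share). Within it chr6:146346328-146355711 had 6, 12 and 3 reads in SCI and none in sham, at least 3.87-fold higher in SCI when sham is set at a floor of 3 reads in total. That bound was 2.51 without SCI replicate 2, 2.56 without sham replicate 1 and 2.43 without sham replicate 3. The nested chr6:146349775-146350284 had 1, 6 and 1 reads in SCI and none in sham. A pair displaced by 9 bases at both ends, chr6:146352967-146359188 and chr6:146352976-146359197, had no read in SCI and 2, 3 and 1 (first) and 12, 0 and 5 (second) in sham. With SCI set at the same floor they were at least 3.61-fold and 10.2-fold lower in SCI. The second bound was 4.57 without sham replicate 1, 6.71 without SCI replicate 1 and 6.78 without SCI replicate 2, and the first 2.37 and 2.39 without SCI replicate 1 or 2. The shift is the same at either end, and whether these are 1 junction placed in 2 ways was not tested. The first of the pair was the only intergenic circRNA with reads in all 3 sham and in no SCI library (0.155% of the class, against 0.0633% of all circRNAs in the table). The group was flanked by circRNAs of Tmem179, 260 kb away, and Pacs2, 499 kb away.

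Other groups were built from a few ends used in combination, unlike the chromosome 1 group of 22; the 2 that follow were chosen after their values were seen. At chr15:100189197-100268607 on the minus strand, 6 circRNAs, all with an identifier and all reusing an end, had 26, 14 and 10 reads in SCI, against 8, 9 and 9 in sham. The most read, chr15:100195223-100198762, was tested (log2 fold change of -0.55, not past the threshold in edgeR's test) and shares its end with chr15:100198124-100198762, which had 13, 4 and 2 reads in SCI, against 2, 5 and 0 in sham. At chr8:121337653-121364711 on the plus strand, 77.9 kb from circRNAs of Pdcd6ip and 42.6 kb from those of the microtubule plus-end gene Clasp2, 5 circRNAs without identifiers all reused an end. They joined starts 121337653 and 121344739 to ends 121351972 and 121364711 in all 4 combinations. Together they had 8, 7 and 5 reads in SCI, against 4, 6 and 0 in sham. The groups overlapped in both places.

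Reads in all 3 SCI and in no sham library were found for 12 intergenic circRNAs (1.86%, against 2.87% of all circRNAs), and SCI libraries held more reads. Beside the chromosome 6 examples, chr8:95364555-95382527 (minus strand) had 6, 3 and 4 reads in SCI, at least 2.40-fold higher, and chr5:109580019-109618887 (plus strand) had 3, 2 and 7, at least 2.21-fold higher. chr17:29062231-29098191 (minus strand), which shared its end with a circRNA of LOC102556358, had 4, 1 and 5, at least 1.85-fold higher. All 3 carried identifiers and spanned 17973 to 38869 bases. Without sham replicate 1 these 3 bounds were 1.58, 1.46 and 1.22, without sham replicate 3 they were 1.51, 1.39 and 1.16, and without SCI replicate 3 the bound of the chromosome 5 circRNA was 1.35. The remaining 7 had 4 to 8 reads each.

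Over the excluded X-linked circRNA, which had 679, 779 and 663 reads in SCI, against 350, 341 and 306 in sham, the 9 members on its strand had 7, 6 and 14 reads in SCI, against 10, 5 and 2 in sham (exact permutation p = 0.8 on their share). The groups overlapped, and 5 of the 9 were seen in a single library. They were built on few points: 4 started at 144352414 and 3 at 144354189, and the 3 ends paired with 144354189 were spaced 18 bases apart. On the other strand, a circRNA with exactly the excluded one's ends had 0, 1 and 0 reads in SCI, against 2, 0 and 0 in sham. No source used here says how a junction's strand was assigned.

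An intergenic circRNA overlapping a well-measured circRNA of a gene, chr3:87830790-87862231 (plus strand, 31442 bases, no identifier), was chosen after its values were seen. It had 5, 12 and 11 reads in SCI, against 0, 2 and 0 in sham, a ratio of 7.75 (exact 95% interval 1.95 to 67.1, counting error only), with no overlap of the groups in share of reads, and was too low for the fit. The ratio was 5.11 without sham replicate 1 and 4.86 without sham replicate 3, and at least 3.68-fold higher in SCI without sham replicate 2, which held both sham reads. It began at the same base as an exonic circRNA of Phf21a, the gene of a histone-binding corepressor protein, and ended 15.8 kb beyond it. The nearest sense circRNA of a named gene past that end, 71.7 kb to the right, was also assigned to Phf21a. The exonic circRNA had 64, 62 and 52 reads in SCI, against 45, 33 and 39 in sham. The 2 circRNAs differ only in the downstream end, and the difference between their changes was not tested. The intergenic one also held 30 of the 39 reads of the chromosome 3 group described above. In that group, chr3:87837803-87862231 shares its end and had a ratio of 0.830, or 0.422 to 1.25 when single SCI libraries were left out. There chr3:87824652-87862231 shares it too and had no sham read, but its bound of 0.369-fold gave no direction.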

How the data were processed

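The authors deposited whole-number counts of back-splice reads per circRNA in 6 libraries, per the file headers, and these counts carried every measure here. The log2 CPM values that the authors also deposited, made with edgeR per the file headers, were not used for tests. Trizol extraction and a TruSeq RNA kit are named in the labels' protocols. Bowtie 0.12.2 and mm8, a mouse build, are named in the submitters' processing notes. No source used here gives the build of the coordinates or the circRNA caller. Table coordinates on chromosome 1 reach 289546669, beyond the last gene end in GRCr8 (270492571), so RefSeq's GRCr8 table served for gene names and types only. Starts are printed counted from 1.

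The 11061 circRNAs were filtered with filterByExpr thresholds of 5 reads (count) and 15 (total), and the 484 that passed entered 1 fit. It used edgeR 4.0.16 in R 4.3.3 with TMM-scaled libraries, a group term alone, the quasi-likelihood F test and Benjamini-Hochberg adjustment. DESeq2 1.42.0 and limma-voom 3.58.1 were alternatives. Standard errors are the log2 fold change over the root of F. One read was worth 100 to 222 CPM. Shares, thinned counts and spans were compared by exact permutation (SciPy 1.17.1). Overlap groups chain circRNAs of the class that overlap on 1 strand. Reads carry no molecular identifiers, so intervals and floors cover counting error only.

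The circRNAs and measures described were chosen with earlier results of these data known. Named circRNAs are the 10 most read, the smallest p-values per direction among tested ones, up to 5 per direction read in all 3 libraries of 1 group only, the 3 largest overlap groups, the longest and shortest, and up to 5 sharing a junction end with a gene-assigned circRNA. Other names were chosen after their values were seen.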

Additional observations from a re-analysis of the deposited data

How the results depend on the processing

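No intergenic circRNA that entered a fit was called in any of 13 alternatives, which covered 2 other scalings, 2 other filters, the replicate block, DESeq2, limma-voom and each library left out. Over all circRNAs 1 was called, against 2 with library totals in place of TMM, with a minimum count of 10, with the replicate block, with DESeq2 and with limma-voom, 0 without the filter (236 at an unadjusted p under 0.05), and 0 to 3 when single libraries were dropped (0 without sham replicate 1, 3 without sham replicate 3). Dropping the filter put the median of the same 484 fold changes at 0.67 (log2), against 0.09. The log2 fold change of chr8:23554099-23605060 turned to -0.025 with DESeq2 size factors, -0.067 with library totals, -0.088 at a minimum count of 10 and -0.027 in DESeq2. Without the filter that of chr7:33029298-33062342 was 0.49 and that of chr8:44166336-44218345 was 0.12. The cause was not tested. With a library left out, the log2 fold changes ran from -0.11 to 0.82 for chr8:23554099-23605060, -0.30 to 0.32 for chr7:33029298-33062342, -0.77 to 0.87 for chr8:44166336-44218345, -0.087 to 1.84 for chrX:119294537-119294692 and -0.19 to 0.55 for chr7:52746914-52747321. The difference in intergenic circRNAs detected after thinning, 38.6 more in SCI, reversed to -23.7 at 2 or more reads, and the difference in identifier share became -0.111 points with each circRNA counted once. Against gene-assigned circRNAs, leaving out a library gave differences of -18.7 to -15.9 points in identifier share, -5269 to -3947 bases in span and 15.7 to 19.1 points in single-library reads, each with p = 0.0625, the smallest that 5 exact sign flips allow. The span difference was -3071 bases without the 3 largest overlap groups (exact sign-flip permutation p = 0.0938). Whether replicate numbers pair the libraries was not tested. Correlations of same-numbered libraries' deviations were weak, at 0.115, 0.0864 and 0.0824, and those of differently numbered ones ran from -0.0706 to -0.0183. Each library thus correlated best with its own number, but deviations from a group mean cancel out within the group, so these correlations are not independent. With the replicate block the difference in the class's share of reads stayed at -0.573 points, where 3 exact sign flips cannot go below p = 0.25. Depth left 630 of 646 below the filter and untested. Leaving out a library moved the difference in share between -0.858 and -0.222 points without a change of direction. Kept to intergenic circRNAs with 2 or more reads in at least 2 libraries, it was -0.0204 points. Their share was 2.32% in SCI and 2.34% in sham (exact permutation p = 0.9).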
